A study of Mus musculus with 7 samples.

Results

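The 35 genes described here encode the contractile apparatus, calcium handling proteins and energy enzymes of skeletal muscle. They were chosen by symbol, and all 35 were among the 21878 genes of the count table. Their counts were read in 7 tumours that formed after female C57BL/6J mice were injected with B16F10, a mouse melanoma line that makes pigment. Controls (NC) gave 3 of the tumours, and the labels describe its treatment only as control. The Zelnorm group held 4 tumours from mice dosed orally with Zelnorm, 1.25 mg/kg, on every second day. Zelnorm is a trade name of tegaserod, a serotonin receptor agonist given for bowel disorders. Mice had been assigned to groups at random after their tumours could be felt, and both groups carry the same injected line. Nothing in the labels ties a library to a single mouse, so the spread between libraries may be partly technical. Libraries are called by their column names, in the order NC_5, NC_6 and NC_10 (controls), then MBZ_9, MBZ_11, MBZ_13, MBZ_15 (Zelnorm), and values follow that order throughout.

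Skeletal muscle shortens when myosin heads of the thick filament pull on actin of the thin filament within the sarcomere, the repeating unit between Z-discs. A nerve impulse opens the calcium channel of the muscle membrane and then the ryanodine receptor of the internal store. The released calcium binds troponin C, which frees actin for myosin, and a calcium pump then refills the store. Fibres come in slow and fast forms that use separate genes for many of these proteins. Slow fibres carry the myosin heavy chain Myh7 and the slow troponins, whereas fast fibres carry Myh2, Myh1 or Myh4, from the slowest to the fastest type, with the fast troponins. In mice most limb and trunk muscles, and the thin muscle sheet under the skin, consist largely of fast fibres. B16F10 cells come from pigment cells, which form no sarcomeres.

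By their known fibre type, 15 genes were taken as fast, 5 as slow and 15 as shared by both types. By role, 9 belong to the thick filament, 8 to the thin filament, 7 to the Z-disc and titin system, 5 to calcium handling and 6 to energy supply. Library totals lay between 16903598 and 19666598 counts, and a gene was taken as detected above 3 counts, a floor worth 0.152 to 0.178 CPM (counts scaled to a common library size). Summed CPM of 10 pigment cell genes was between 30578 and 36140 in every library, with all 10 above the floor, so the defining genes of the labelled cell line were present. The 35 muscle genes together took between 0.00831% and 0.0561% of all counts.

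Summed over these genes, libraries MBZ_15, MBZ_11 and NC_5 were highest, in that order, with MBZ_9 next. The summed level of the 24 sarcomere genes was 48.2, 8.69 and 12.3 CPM in the NC libraries and 21.7, 124, 10.6 and 324 CPM in the Zelnorm libraries. The highest library was 37.3-fold above the lowest. The group means were 23.1 ± 21.9 (SD, n = 3) for NC and 120 ± 145 (SD, n = 4) for Zelnorm, and the libraries of the groups overlapped, since NC_5 lay above MBZ_9 and MBZ_13. Of the 35 genes, 30 were highest in MBZ_15, 3 in NC_5, 1 in MBZ_9 and 1 in MBZ_11. MBZ_15 came first and MBZ_11 second for 27 genes, and for 20 of them NC_5 came next. Among all 12997 genes with enough counts to be tested, which include 27 of the 35, 1686 (13.0%) were highest in MBZ_15. In such bulk RNA, fewer muscle fibres in a sample and less RNA per fibre cannot be told apart.

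**Figure D1:**
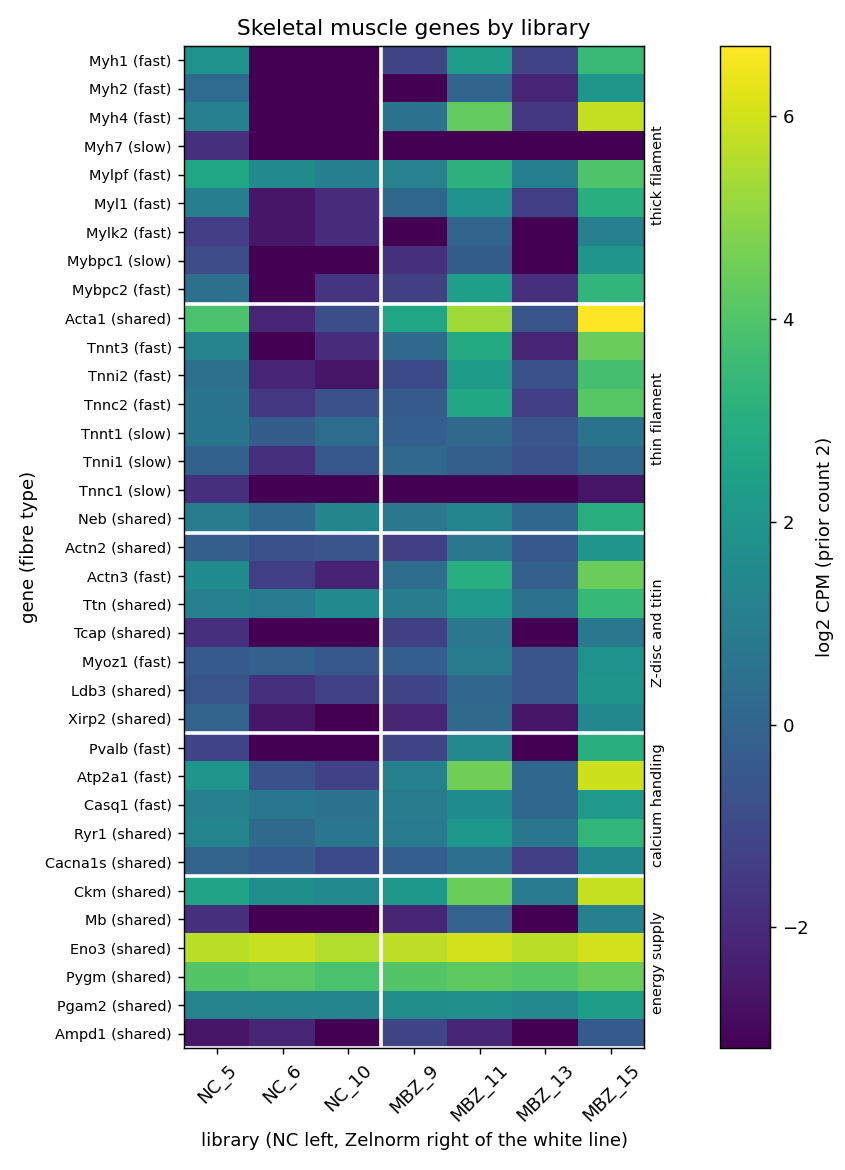
Level of each of the 35 genes (rows, with the fibre type in brackets, grouped by role) in each library (columns), as log2 CPM with a prior count of 2. The columns of MBZ_15, MBZ_11 and NC_5 are the brightest for most genes, whereas Eno3 and Pygm are about as bright in every library and Myh7 and Tnnc1 are dark in nearly all.

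The stretch around the start of a gene holds many of the sites through which muscle transcription factors act, so the promoters of 5 members that mark the range of patterns are shown. They are skeletal actin and muscle creatine kinase, which reached the highest levels per coding length in MBZ_15, the fast myosins Myh4 and Myh1, whose proportions differed between libraries, and the slow troponin Tnnt1, whose level varied by only 2.60-fold. Each runs from 250 bases before to 50 after the start site in RefSeq, on build GRCm38.p6. They lie at chr8:123894726-123895025 (Acta1, minus strand), chr7:19410844-19411143 (Ckm, plus strand), chr11:67237562-67237861 (Myh4, plus strand), chr11:67199852-67200151 (Myh1, plus strand) and chr7:4515926-4516225 (Tnnt1, minus strand). Capitals mark matches on either strand to TATAAA, to CAGCTG (a form of the E-box CANNTG bound by myogenic factors), to the CArG box bound by serum response factor and to the MEF2 box.
Acta1: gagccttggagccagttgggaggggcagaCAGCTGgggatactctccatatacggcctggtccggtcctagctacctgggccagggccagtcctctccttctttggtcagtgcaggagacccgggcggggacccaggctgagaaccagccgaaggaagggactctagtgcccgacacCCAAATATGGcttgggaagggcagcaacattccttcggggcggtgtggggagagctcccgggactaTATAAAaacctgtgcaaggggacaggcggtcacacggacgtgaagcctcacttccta
Ckm: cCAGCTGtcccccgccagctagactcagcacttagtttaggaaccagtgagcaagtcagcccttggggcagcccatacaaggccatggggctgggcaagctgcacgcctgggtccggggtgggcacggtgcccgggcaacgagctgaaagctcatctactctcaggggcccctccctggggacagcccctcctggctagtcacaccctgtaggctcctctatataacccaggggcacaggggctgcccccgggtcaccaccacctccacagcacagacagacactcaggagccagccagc
Myh4: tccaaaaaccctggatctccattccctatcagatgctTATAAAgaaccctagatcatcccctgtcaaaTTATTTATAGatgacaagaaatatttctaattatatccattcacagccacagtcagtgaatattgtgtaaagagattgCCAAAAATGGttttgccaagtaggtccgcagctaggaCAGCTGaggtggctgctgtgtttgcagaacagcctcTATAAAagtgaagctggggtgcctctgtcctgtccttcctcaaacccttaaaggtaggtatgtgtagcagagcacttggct
Myh1: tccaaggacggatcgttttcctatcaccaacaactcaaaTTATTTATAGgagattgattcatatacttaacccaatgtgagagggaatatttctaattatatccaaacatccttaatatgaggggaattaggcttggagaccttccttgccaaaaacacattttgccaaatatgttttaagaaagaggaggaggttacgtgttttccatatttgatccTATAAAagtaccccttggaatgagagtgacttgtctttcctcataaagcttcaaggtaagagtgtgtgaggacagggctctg
Tnnt1: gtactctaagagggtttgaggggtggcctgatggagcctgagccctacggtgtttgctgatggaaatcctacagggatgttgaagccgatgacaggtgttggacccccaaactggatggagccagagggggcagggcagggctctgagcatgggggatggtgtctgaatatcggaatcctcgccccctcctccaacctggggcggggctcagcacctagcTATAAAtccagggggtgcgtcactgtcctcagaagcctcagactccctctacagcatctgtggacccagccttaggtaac

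Promoters in the RefSeq table were matched for 27 of the 35 genes, and motifs were sought on both strands. At least 1 CAGCTG was found for 14 of the 27, against 18.3% of the 27025 genes with promoters of the same length. The wider E-box CANNTG, which includes every CAGCTG, was found for 23 of 27, against 75.0% of all genes. A MEF2 box was found for Myh1, Myh4, Pgam2, Pvalb, Ttn and Xirp2 (3.70% of all genes), and a CArG box for Acta1, Ldb3 and Myh4 (1.81% of all genes). TATAAA, whose letters can overlap those of a MEF2 box, was present for 6 of 27, against 15.7% of all genes. Within the 40 bases before the start it was present on the coding strand for Acta1, Myh1, Myh4 and Tnnt1, against 2.78% of all genes. These matches describe letters in the window and are not evidence of binding.

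The comparison of Zelnorm with NC called none of the 35 genes. edgeR's quasi-likelihood test was run over 12997 genes with enough counts, with Benjamini-Hochberg adjustment at 0.05, and 27 of the 35 genes were among those tested. At that threshold 4 genes of the table (0.0308%) were called higher and 0 (0%) lower, and the smallest adjusted p of a muscle gene was 0.337. At an unadjusted p under 0.05, 11 muscle genes were higher in Zelnorm and 0 lower, where 6.94% of all tested genes were higher and 3.38% lower (10.3% in either direction). The log2 fold change was above 0 for 26 of the 27 (50.2% of all genes) and below 0 for Tnnt1. Its median was 1.65 over the 27 tested genes, with a range from -0.21 to 4.77, against 0.00036 over all genes. The filter on low counts keeps a gene that is high in few libraries, so this median describes the tested genes only. Without the filter it was 1.83 over all 35 genes, 32 above 0 and 3 below.

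These values moved when single libraries were left out, and the set of tested genes moved too, since the filter was applied again each time. The number of muscle genes at an unadjusted p under 0.05 was 19 of 32 tested without NC_5, 0 of 32 without NC_6 and 4 of 32 without NC_10. It was 14 of 27 without MBZ_9, 4 of 21 without MBZ_11, 17 of 26 without MBZ_13 and 1 of 21 without MBZ_15. Over all genes tested, the share in either direction was 7.43%, 10.4% and 11.1% without those NC libraries in turn. Without the Zelnorm libraries in turn, that share was 9.93%, 7.84%, 9.56% and 9.46%. The median log2 fold change was 3.46 over the 32 genes tested without NC_5 and 0.52 over the 21 tested without MBZ_15. With NC_5, MBZ_11 and MBZ_15 all left out, a check chosen after seeing the data, 17 muscle genes could be tested, 8 above 0 and 9 below, with a median of -0.013. Of these 17, 3 were higher at an unadjusted p under 0.05 and 0 lower, against 4.23% of all genes in either direction. DESeq2 and limma voom also called 0 muscle genes after adjustment, and at an unadjusted p under 0.05 they gave 7 of 35 and 1 of 27. Over all genes, DESeq2 and limma voom gave 7.73% and 10.4% at that unadjusted threshold.

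**Figure D2:**
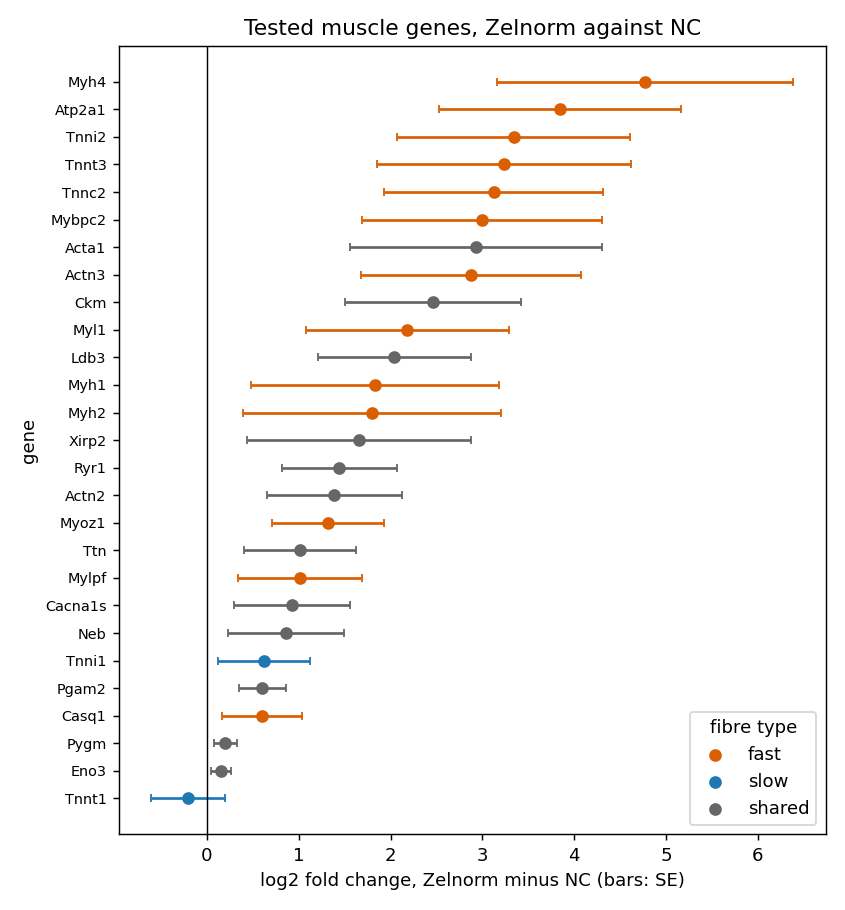
Log2 fold change of Zelnorm over NC from edgeR for the 27 muscle genes tested, sorted by size, with bars of 1 SE and colours for the fibre type. The upper rows hold mostly fast fibre genes, led by Myh4 at 4.77 ± 1.61. The slow fibre genes Tnni1 and Tnnt1 are at 0.62 ± 0.50 and -0.21 ± 0.40, and the fast gene Casq1 is beside Tnni1 at 0.60 ± 0.43. None passed an adjusted p of 0.05.

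In the thick filament, the myosin heavy chain genes of fast fibres ranged from 0 counts in NC_6 and NC_10 to 1087 counts of Myh4 in MBZ_15. Myh2, Myh1 and Myh4 are neighbours on chromosome 11 (67171027 to 67197517, 67200102 to 67224577 and 67237812 to 67260447), and Myh7 is on chromosome 14 (54970684 to 54994626). Myh4, the heavy chain of the fastest fibres, had 39, 0 and 0 counts in NC and 24, 332, 4 and 1087 counts in Zelnorm. Every Zelnorm library held some Myh4 counts, but NC_5 held more than MBZ_9 and MBZ_13, so the groups overlapped. Its log2 fold change was 4.77 ± 1.61 (SE, edgeR adjusted p = 0.337).

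Myh1, the heavy chain of the intermediate fast type, had 67, 0 and 0 counts in NC and 6, 84, 6 and 224 in Zelnorm. NC_5 was thus close to MBZ_11 for Myh1, while for Myh4 it was far below it. Myh2, from the slowest of the fast types, had 20, 0 and 0 counts in NC and 0, 15, 2 and 78 in Zelnorm. Their log2 fold changes were 1.83 ± 1.35 (edgeR adjusted p = 0.704) and 1.80 ± 1.40 (edgeR adjusted p = 0.723). Myh7, the slow heavy chain, had 3 counts in NC_5 and 0 in the other 6 libraries, and so was never above the floor of 3 counts. The heavy chain genes share sequence, with between 18.9% and 26.9% of their 50-base stretches also found in another gene, so part of their counts may have been split or dropped in counting.

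Of the myosin light chains, Mylpf, the regulatory light chain of fast fibres, was above the floor in all 7 libraries, with 110, 49 and 40 counts in NC and 38, 147, 35 and 310 in Zelnorm. Its spread was therefore smaller than that of the heavy chains, and its log2 fold change was 1.01 ± 0.68 (edgeR adjusted p = 0.663). Myl1, the essential light chain of fast fibres, had 36, 1 and 3 counts in NC and 17, 59, 5 and 162 in Zelnorm (log2 fold change 2.18 ± 1.11, edgeR adjusted p = 0.539). A pseudogene, Mylf-ps, shares 23.4% of the 50-base stretches of Myl1. Mylk2, the kinase that phosphorylates the regulatory light chain, was too low to be tested, with 40 counts in MBZ_15, 15 in MBZ_11 and at most 5 elsewhere.

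Myosin binding protein C tethers myosin to the filament backbone and has a fast and a slow form in skeletal muscle. The fast form, Mybpc2, had 23, 0 and 4 counts in NC and 5, 86, 3 and 195 in Zelnorm (log2 fold change 3.00 ± 1.31, edgeR adjusted p = 0.464). Mybpc1, the slow form, was not tested and had 8, 0 and 0 counts in NC and 3, 12, 0 and 75 in Zelnorm. It was the only slow fibre gene that was highest in MBZ_15.

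Thin filament genes spanned 70.8-fold in their sum, from 2.34 CPM in NC_6 to 166 CPM in MBZ_15, the widest range of the 5 roles. Acta1, the actin of skeletal muscle (chromosome 8, 123891758 to 123894775), had 262, 2 and 9 counts in NC and 105, 650, 10 and 2033 in Zelnorm. In CPM these were 14.2, 0.111 and 0.455 against 6.04, 38.5, 0.563 and 103. NC_5 exceeded MBZ_9 and MBZ_13, and the log2 fold change of 2.93 ± 1.37 had an edgeR adjusted p of 0.498.

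Troponin has 3 subunits, of which T binds tropomyosin, I blocks the actin site and C binds calcium, and each has a fast and a slow gene. The fast troponin T gene Tnnt3 (chromosome 7, 142498771 to 142516213) had 41, 0 and 3 counts in NC and 18, 119, 2 and 422 in Zelnorm. Its neighbour Tnni2, the fast troponin I gene (142441816 to 142444410), had 23, 2 and 1 counts in NC and 7, 77, 9 and 265 in Zelnorm. Tnnc2, the troponin C of fast fibres, had 26, 4 and 10 counts in NC and 12, 111, 5 and 340 in Zelnorm. All 3 shared one order at the top, MBZ_15, then MBZ_11, then NC_5. Their log2 fold changes were 3.23 ± 1.38, 3.34 ± 1.27 and 3.12 ± 1.19, with edgeR adjusted p-values of 0.456, 0.395 and 0.396.

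The slow troponins had another pattern. Tnnt1 (chromosome 7, 4504569 to 4515975) had 27, 13 and 22 counts in NC and 13, 18, 10 and 28 in Zelnorm, a range of 2.60-fold in CPM. Its log2 fold change was -0.21 ± 0.40 (edgeR adjusted p = 0.908) and turned to 0.048 without NC_5. Tnni1, the slow troponin I gene (chromosome 1, 135783033 to 135810989), had 15, 3 and 12 counts in NC and 18, 13, 9 and 19 in Zelnorm, with the highest CPM in MBZ_9. Both were above the floor in libraries such as NC_10, MBZ_9 and MBZ_13, where fast fibre genes were low. Tnnc1, the troponin C of slow fibres and heart, had 3 counts in NC_5, 1 in MBZ_15 and 0 elsewhere.

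Nebulin, encoded by Neb, runs along the thin filament and sets its length. It had 34, 18 and 48 counts in NC and 28, 39, 18 and 154 in Zelnorm, so NC_10 ranked second. The log2 fold change of 0.86 ± 0.63 (edgeR adjusted p = 0.697) became -0.11 without MBZ_15.

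At the Z-disc, Actn3, the α-actinin of the fastest fibres, ranged more widely than Actn2, the α-actinin of all fibres. Actn3 had 54, 5 and 2 counts in NC and 20, 133, 14 and 439 in Zelnorm (log2 fold change 2.88 ± 1.20, edgeR adjusted p = 0.445). Actn2 had 14, 9 and 11 counts in NC and 5, 27, 11 and 75 in Zelnorm (log2 fold change 1.39 ± 0.73, edgeR adjusted p = 0.557). The giant spring protein titin, encoded by Ttn, had 39, 31 and 57 counts in NC and 32, 72, 24 and 208 in Zelnorm, and NC_10 again ranked above NC_5. Tcap, the cap of titin at the Z-disc, was not tested and had 3, 0 and 0 counts in NC and 5, 26, 0 and 31 in Zelnorm.

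Of the other Z-disc genes, Ldb3, a scaffold that binds α-actinin, had 10, 3 and 6 counts in NC and 6, 16, 10 and 73 in Zelnorm (log2 fold change 2.04 ± 0.83, edgeR adjusted p = 0.435). Myoz1, which links α-actinin to calcineurin in fast fibres, had 12, 14 and 12 counts in NC and 13, 31, 10 and 71 in Zelnorm. For Myoz1 only MBZ_11 and MBZ_15 departed from a level of 10 to 14 counts. Xirp2, an actin binding protein of sarcomere repair, had 16, 1 and 0 counts in NC and 2, 18, 1 and 51 in Zelnorm. Without NC_5, MBZ_11 and MBZ_15 the log2 fold changes of Actn2, Ttn and Myoz1 were -0.22, -0.54 and -0.083.

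Of the calcium handling genes, Atp2a1, the calcium pump of fast fibres (chromosome 7, 126445858 to 126463103), had 70, 9 and 6 counts in NC and 37, 396, 18 and 1190 in Zelnorm. It was above the floor in every library, and its CPM spanned 199-fold. The log2 fold change was 3.84 ± 1.32 (edgeR adjusted p = 0.347), and NC_5 again lay above MBZ_9 and MBZ_13. Pvalb, the soluble calcium buffer of the fastest fibres, was not tested and had 6, 0 and 0 counts in NC and 6, 45, 0 and 159 in Zelnorm.

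The channel and store genes varied less. Ryr1, the calcium release channel, had 42, 19 and 30 counts in NC and 30, 69, 27 and 200 in Zelnorm (log2 fold change 1.44 ± 0.63, edgeR adjusted p = 0.464). Cacna1s, the voltage sensor of the muscle membrane, had 16, 12 and 8 counts in NC and 13, 21, 5 and 51 in Zelnorm (log2 fold change 0.92 ± 0.63). Casq1, the calcium binding protein of the store in fast fibres, had 39, 27 and 27 counts in NC and 32, 50, 18 and 83 in Zelnorm, a range of 4.16-fold in CPM (log2 fold change 0.60 ± 0.43). Casq1 thus varied far less than Atp2a1, although both are classed as fast.

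Energy genes showed 2 patterns. Ckm, which encodes muscle creatine kinase and restores ATP from phosphocreatine (chromosome 7, 19411094 to 19421583), had 107, 57 and 53 counts in NC and 72, 370, 31 and 1124 in Zelnorm. Its CPM values were 5.80, 3.17 and 2.68 in NC and 4.14, 21.9, 1.74 and 57.1 in Zelnorm (log2 fold change 2.46 ± 0.96, edgeR adjusted p = 0.407). Mb, the oxygen store myoglobin, was not tested and had 3, 0 and 0 counts in NC and 2, 14, 0 and 42 in Zelnorm. Ampd1, the AMP deaminase of muscle, was not tested either and reached at most 13 counts, in MBZ_15.

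The glycolytic and glycogen enzymes Eno3, Pygm and Pgam2 varied less, by 1.38-fold, 1.56-fold and 2.17-fold in CPM, and Eno3 and Pygm had at least 890 and 282 counts in every library. Eno3, the muscle form of enolase (chromosome 11, 70653125 to 70662513), was at 51.2, 58.3 and 47.0 CPM in NC and 52.5, 64.8, 50.1 and 64.1 CPM in Zelnorm. Pygm, the glycogen phosphorylase of muscle, was at 16.5, 17.9 and 14.3 CPM in NC and 16.6, 18.8, 16.8 and 22.3 CPM in Zelnorm. Their log2 fold changes were 0.15 ± 0.11 and 0.20 ± 0.13, with edgeR adjusted p-values of 0.692 and 0.633. Pgam2, the muscle form of phosphoglycerate mutase, was at 2.22, 2.28 and 2.33 CPM in NC and 3.11, 3.26, 2.64 and 4.83 CPM in Zelnorm. It was the only one of the 35 whose groups did not overlap (in the same direction, 5.33% of all tested genes had groups that did not overlap, and 4.27% in the other), and its log2 fold change of 0.60 ± 0.25 had an edgeR adjusted p of 0.445.

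Eno3 and Pygm weigh heavily in any sum over the muscle genes. Over all 35 genes the summed level ranged 6.83-fold, from 82.1 CPM in NC_10 to 561 CPM in MBZ_15. Leaving out Eno3, Pygm and Pgam2, a choice made after seeing the values, the range was 29.9-fold, from 15.7 CPM in NC_6 to 469 CPM in MBZ_15. Per kilobase of coding length in NC_6, Eno3 led with 44.8 CPM, followed by Pygm with 7.10, Mylpf with 5.38, Pgam2 with 3.01 and Ckm with 2.78. In MBZ_15 the leading genes per kilobase were Acta1 with 91.3 CPM, Ckm with 49.9, Eno3 with 49.2, Tnnc2 with 36.0 and Mylpf with 31.1. Acta1 was thus the most abundant muscle gene per length in MBZ_15, while in NC_6 it stood at 0.0985 CPM per kilobase.

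In summed counts, the 15 fast fibre genes outweighed the 5 slow fibre genes in every library, by very different factors. The 15 fast genes together had 571, 112 and 111 counts in NC and 235, 1700, 131 and 5065 in Zelnorm. The 5 slow genes together had 56, 16 and 34 counts in NC and 34, 43, 19 and 123 in Zelnorm. The fast sum spanned 45.8-fold in CPM and the slow sum 7.01-fold. Mybpc1 alone gave 75 of the 123 slow counts in MBZ_15, against 12 of 43 in MBZ_11 and 8 of 56 in NC_5. The range of the slow sum thus rests largely on that gene. Mylpf, Casq1 and Myoz1 gave most of the fast counts in NC_6 (49, 27 and 14) and in NC_10 (40, 27 and 12).

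The ratio of fast to slow counts was 10.2 (95% exact interval 7.74 to 13.7) in NC_5, 7.0 (4.13 to 12.7) in NC_6 and 3.26 (2.21 to 4.95) in NC_10. In Zelnorm it was 6.91 (4.81 to 10.2) in MBZ_9, 39.5 (29.2 to 54.8) in MBZ_11, 6.89 (4.24 to 11.8) in MBZ_13 and 41.2 (34.4 to 49.7) in MBZ_15. MBZ_11 and MBZ_15 had intervals that overlapped each other and none of the other 5. The next highest ratio was that of NC_5, but its interval overlapped those of NC_6, MBZ_9 and MBZ_13. These intervals cover counting error only. The ratio of MBZ_15 also depends on Mybpc1, which gave 75 of its 123 slow counts.

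**Figure D3:**
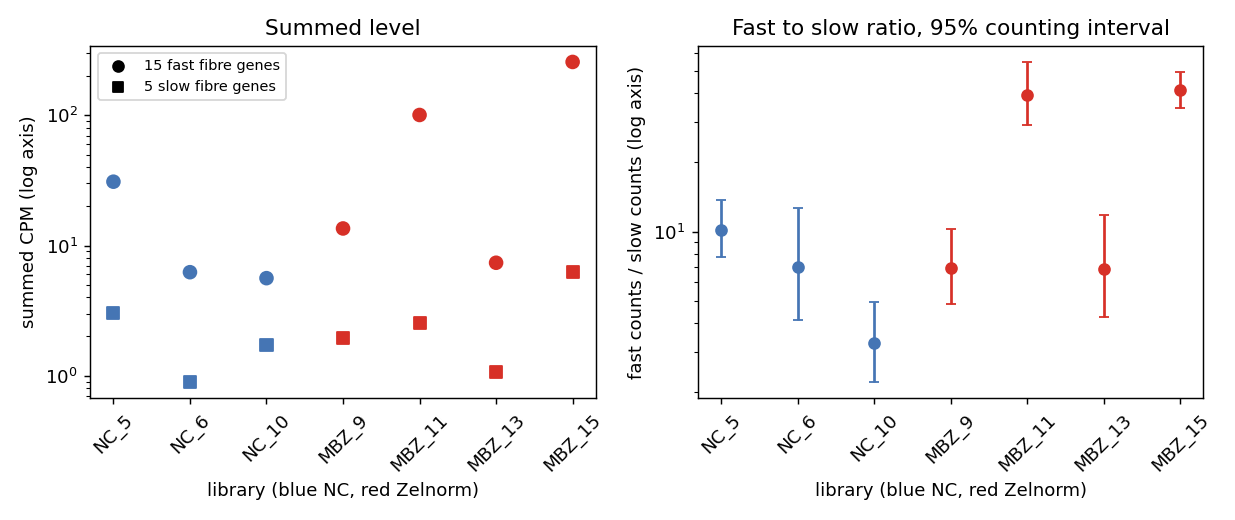
Left, summed CPM (log axis) of the 15 fast fibre genes (circles) and 5 slow fibre genes (squares) in each library, NC in blue and Zelnorm in red. Right, the ratio of fast to slow counts (log axis) with its 95% exact counting interval. The ratio is 39.5 in MBZ_11 and 41.2 in MBZ_15 and between 3.26 and 10.2 in the other 5 libraries.

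The sums are dominated by a few genes, so the same question was put to pairs of fast and slow forms of 1 protein, per coding length. For troponin T the ratio of Tnnt3 to Tnnt1 was 1.46, 0 and 0.131 in NC and 1.33, 6.37, 0.193 and 14.5 in Zelnorm. The slow form was thus above the fast form in NC_6, NC_10 and MBZ_13. For troponin I the ratio of Tnni2 to Tnni1 was 1.51 in NC_5 and 0.0820 in NC_10, and both genes were at or under the floor in NC_6. In Zelnorm it was 0.383, 5.83, 0.984 and 13.7. Both pairs put MBZ_15 first and MBZ_11 second.

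Myosin and troponin C gave only lower bounds, since the slow form had 0 counts in most libraries. Against the floor of 3 counts for Myh7 in the same library, Myh4 was at least 110-fold higher in MBZ_11 and at least 362-fold higher in MBZ_15. Tnnc2 was at least 37.2-fold higher than Tnnc1 in MBZ_11. For myosin binding protein C the ratio of Mybpc2 to Mybpc1 was 2.85 in NC_5, 7.11 in MBZ_11 and 2.58 in MBZ_15, so this pair did not follow the order of the troponins. Median ratios over the 5 pairs, with 0.5 counts added to each gene, were 2.74, 0.992 and 0.998 in NC and 1.56, 6.87, 6.94 and 14.3 in Zelnorm. The value of MBZ_13 rests on the added 0.5 counts, since Myh7, Tnnc1 and Mybpc1 had 0 counts there. Those of NC_6 and NC_10 come from the added 0.5 counts alone and measure no fast or slow level. In NC_6 the middle pair was Mybpc2 and Mybpc1, and in NC_10 Myh4 and Myh7, with 0 counts of both genes.

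Among the heavy chains themselves, the proportions in NC_5 differed from those in MBZ_9, MBZ_11 and MBZ_15. In NC_5, Myh1 made up 51.9% (95% Clopper-Pearson interval 43.0 to 60.8) of 129 counts of Myh1, Myh2, Myh4 and Myh7, Myh4 made up 30.2% (22.5 to 38.9) and Myh2 15.5% (9.73 to 22.9). Myh4 led in MBZ_9 with 80.0% (61.4 to 92.3) of 30 counts, in MBZ_11 with 77.0% (72.8 to 80.9) of 431 counts and in MBZ_15 with 78.3% (76.0 to 80.4) of 1389 counts. The Myh4 interval of NC_5 lay below those of all 3. MBZ_13, with 12 counts, had 33.3% Myh4 and an interval (9.92 to 65.1) that overlapped NC_5 and MBZ_9, and NC_6 and NC_10 had 0 counts of all 4 genes. This comparison sets single libraries side by side, with 1 NC library that could be used, and says nothing of the groups.

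**Figure D4:**
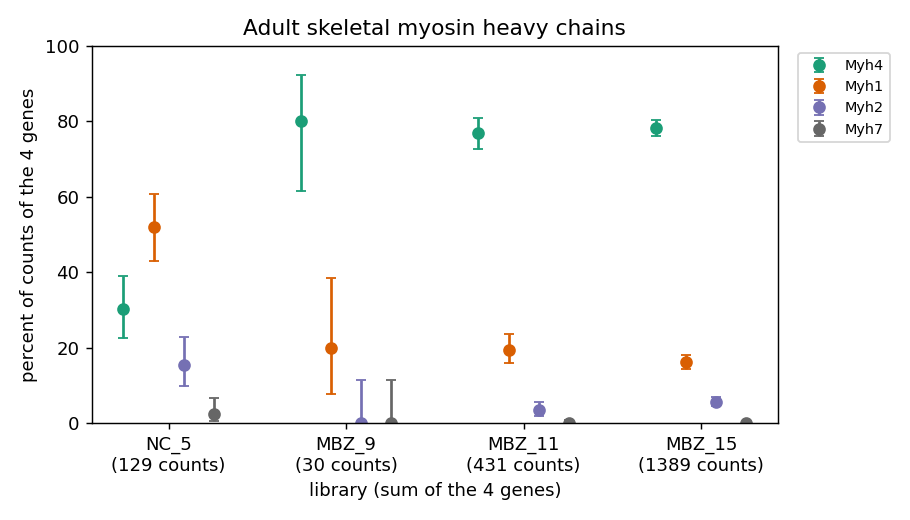
Share (percent, with 95% Clopper-Pearson intervals) of Myh4, Myh1, Myh2 and Myh7 in their summed counts in the 4 libraries with at least 30 such counts. Myh1 leads in NC_5 with 51.9%, and Myh4 leads in MBZ_9, MBZ_11 and MBZ_15 with 77.0% to 80.0%.

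Relative to skeletal actin, several genes also differed between NC_5 and the libraries MBZ_11 and MBZ_15, in both directions. Counts of Myh4 were 0.149 times those of Acta1 in NC_5, 0.229 in MBZ_9, 0.511 in MBZ_11 and 0.535 in MBZ_15. Atp2a1 stood at 0.267, 0.352, 0.609 and 0.585 times Acta1 in the same libraries, and its share of their sum was 21.1% (16.8 to 25.9) in NC_5 against 36.9% (35.3 to 38.6) in MBZ_15. Myh1 and Mylpf went the other way. Myh1 stood at 0.256 times Acta1 in NC_5, 0.0571 in MBZ_9, 0.129 in MBZ_11 and 0.110 in MBZ_15. Mylpf stood at 0.420, 0.362, 0.226 and 0.152 times Acta1, and its share of their sum was 29.6% (25.0 to 34.5) in NC_5 against 13.2% (11.9 to 14.7) in MBZ_15. Ckm, which both fibre types use, stood at 0.408, 0.686, 0.569 and 0.553 times Acta1. Tnnt3 relative to Acta1 was closer between these libraries, at 0.156, 0.171, 0.183 and 0.208, with Clopper-Pearson intervals of its share that all overlapped. NC_6, NC_10 and MBZ_13 had only 2, 9 and 10 counts of Acta1. There Ckm stood at 28.5, 5.89 and 3.1 times Acta1, Mylpf at 24.5, 4.44 and 3.5, and Atp2a1 at 4.5, 0.667 and 1.8. Tnnt3 stood at 0, 0.333 and 0.2, Myh4 at 0, 0 and 0.4, and Myh1 at 0, 0 and 0.6. Of the counts of the 3 fast troponins, Tnni2 made up 25.6% (16.94 to 35.8) in NC_5, 18.9% (7.96 to 35.2) in MBZ_9, 25.1% (20.3 to 30.3) in MBZ_11 and 25.8% (23.2 to 28.6) in MBZ_15. In MBZ_13 it made up 56.2% (29.9 to 80.2) of only 16 counts, an interval above that of MBZ_15. Tnnc2 made up 71.4% (41.9 to 91.6) of 14 counts in NC_10 against 28.9% (19.8 to 39.4) in NC_5, so proportions were not alike in every library.

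Other genes of muscle, not among the 35, were listed by role to see whether they followed the same libraries. Of 76 such genes in the table, 70 were above the floor in at least 1 library, and 45 of these (64.3%) were highest in MBZ_15. Among all genes tested the share was 13.0%, but these had passed another filter, so the 2 shares are not like for like. A gene could enter the 70 through its highest library alone, and only 29 of the 76 were above the floor in all libraries. By list, MBZ_15 was highest for 24 of 33 sarcomere and cytoskeleton genes, 14 of 20 membrane and calcium genes and 7 of 17 metabolic genes. Of the 34 that could be tested, edgeR called 0 after adjustment, and at an unadjusted p under 0.05, 2 were higher and 1 lower. Over all tested genes these shares were 6.94% higher and 3.38% lower, so the count does not set these genes apart. Their median log2 fold change was 0.04, against 0.00036 over all genes.

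Tpm2, a tropomyosin of the thin filament, had 157, 82 and 158 counts in NC and 163, 252, 168 and 516 in Zelnorm. Its Zelnorm libraries all lay above its NC libraries, as for 5.33% of all tested genes. The log2 fold change was 1.10 ± 0.36 (edgeR adjusted p = 0.324). Chosen after their values were seen, Nrap, a protein of the myotendinous junction, had 95 counts in MBZ_15 and 28 in MBZ_11 against 4 to 12 elsewhere. Myom2, an M-band protein, had 44 in MBZ_15 and 12 in MBZ_11 against 0 or 1 elsewhere. Other genes of these lists went otherwise, such as Cox8b, highest in MBZ_13 with 21 counts, and Myl2, highest in NC_5 with 6. Of the 70 genes above the floor somewhere, 45 were highest in MBZ_15, 9 in NC_5 and 5 in MBZ_11.

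Genes of muscle precursors were mostly at few counts. Of 11 such genes in the table, 5 were never above the floor. Myf5 had 0 counts in all 7 libraries, Pax7 at most 1 and Myod1 at most 2, both in MBZ_15. Together, the 4 myogenic factors Myf5, Myod1, Myog and Myf6 had 5 counts in NC_5, 2 in MBZ_11, 7 in MBZ_15 and 0 in the other 4 libraries. Of these factors only Myf6 in MBZ_15, with 5 counts, was above the floor, so their counts are too few to compare libraries. Myh3, the embryonic heavy chain, had 26, 15 and 15 counts in NC and 15, 11, 11 and 21 in Zelnorm. Of 9 heart muscle genes, 5 were never above the floor, and all 8 smooth muscle genes were above it in every library.

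Lists of other cell types were summed beside the sarcomere genes. Fat cell genes, with all 10 above the floor in every library, were at 74.6, 131 and 193 CPM in NC and 57.4, 189, 423 and 75.6 CPM in Zelnorm, highest in MBZ_13 and lowest in MBZ_9, NC_5 and MBZ_15. Keratinocyte genes, of which 9 of 12 were above the floor somewhere and 3 were never above it, were at 3.79, 2.84 and 6.07 CPM in NC and 2.13, 23.8, 4.50 and 6.91 CPM in Zelnorm. MBZ_11 was highest for 8 of those 9 genes. Fibroblast genes, all 10 above the floor everywhere, ranged from 931 to 2005 CPM in NC and from 1499 to 2672 CPM in Zelnorm, lowest in NC_5 and highest in MBZ_15. Leukocyte genes, again all 10, ranged from 493 to 587 CPM in NC and from 549.5 to 772 CPM in Zelnorm, highest in MBZ_11. Whether any of these has a part in the muscle gene values was not tested.

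**Figure D5:**
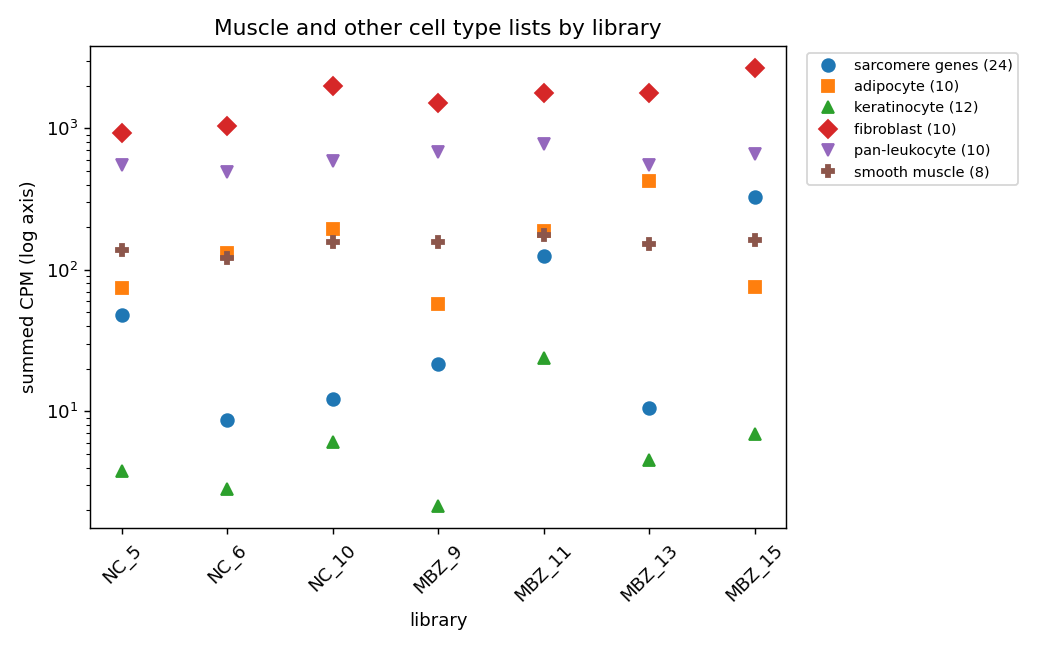
Summed CPM (log axis) of the 24 sarcomere genes and of lists of other cell types in each library, with the number of genes of each list in brackets. The sarcomere sum spans from 8.69 CPM in NC_6 to 324 CPM in MBZ_15, the fat cell sum peaks at 423 CPM in MBZ_13, and the keratinocyte sum peaks at 23.8 CPM in MBZ_11.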

How the data were processed

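Messenger RNA of 7 tumours was sequenced, after TRIzol extraction and TruSeq Stranded mRNA library preparation per the labels' protocols. The deposited table of the authors holds raw read counts for each gene. Trimmomatic, Cufflinks, HISAT2, DESeq and HTSeq, with the builds GRCh38 and GRCm38, are named in the submitters' processing notes. How strand and annotation were set for the counting is not given in the sources used here. Columns name the group and no replicate number, so each was assigned to its group only, and the labels give no batch.

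The 35 muscle genes, their fibre types and 13 further gene lists were chosen with earlier results of these data known. All 35 are named. Of the lists of other muscle genes, muscle precursors, heart and smooth muscle, the 3 genes with the highest mean CPM in each are named, apart from some that are not reported here, and others only as chosen after their values were seen. Genes were filtered with filterByExpr, scaled by TMM and compared with the quasi-likelihood test of edgeR 4.0.16 (R 4.3.3), adjusted by Benjamini-Hochberg over all 12997 genes. The method was tested on simulated counts in which changed genes shifted alike in every Zelnorm library. That test therefore does not cover genes that are high in only a few libraries, as many muscle genes were. CPM uses TMM-scaled library sizes, and SEs come from the F statistic. Counts of each pair of libraries differed by more than sampling noise (chi-square per degree of freedom at least 6.54). Shares have Clopper-Pearson intervals at 95%, which, like the floor of 3 counts, cover counting error only, as no molecular identifiers are named. Coding lengths come from GENCODE gene models and positions from RefSeq on GRCm38.p6. Alternatives were other scalings, filters, DESeq2 1.42.0, limma 3.58.1 voom and leaving out libraries. Promoters of 8 genes were not analysed here. Figures were drawn with matplotlib 3.10.9.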

Additional observations from a re-analysis of the deposited data

How the results depend on the processing

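No muscle gene passed an adjusted p of 0.05 in edgeR, DESeq2 or voom or with any library left out. Over all genes, 4 passed, against 34 without a filter, 201 with DESeq2, between 0 (without NC_5) and 161 (without NC_10) with 1 library left out, 21 of them without MBZ_15, and 0 without NC_5, MBZ_11 and MBZ_15 together (547 at an unadjusted p under 0.05). With 1 library left out, the median log2 fold change ran from 0.52 to 3.46 for the muscle genes, from 1.56 to 5.39 for the fast genes and from 0.022 to 1.05 for the slow genes, of which 2 were tested with all libraries and 3 without any 1 NC library. The slow median was -0.21 without a filter and -0.22 with DESeq2, where more slow genes entered. Without NC_5, MBZ_11 and MBZ_15 the muscle and the fast median were both -0.013, and log2 fold changes turned for Actn2 (-0.22), Mylpf (-0.20), Ttn (-0.54), Neb (-0.40), Myoz1 (-0.083), Casq1 (-0.013), Cacna1s (-0.059), Eno3 (-0.042), Obsl1 (0.0088) and Myl4 (0.18). The cause was not tested.

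For each setting that follows, libraries not given kept a fast to slow ratio within the 95% interval of their main ratio. Without the most abundant fast and slow genes, the fast to slow ratio was 17.3 in NC_5, 34.3 in NC_6, 8.75 in NC_10 and 12.6 in MBZ_13, where few slow counts remain. NC_6 then lay within the main interval of MBZ_11 (29.2 to 54.8). With sarcomere genes alone it was 4.71 in MBZ_9, 27.8 in MBZ_11 and 29.2 in MBZ_15. As the median over pairs it was 2.74, 0.992 and 0.998 in NC_5, NC_6 and NC_10 and 1.56, 6.87 and 14.3 in MBZ_9, MBZ_11 and MBZ_15. The values of NC_6 and NC_10 come from the added 0.5 counts alone and measure no fast or slow level. That of MBZ_13, given with the pairs above, lay above that of MBZ_11 but rests on the added counts too. The log2 range of the summed level, 2.77, was 3.85 as a mean of log2 CPM and 4.90 without Eno3, Pygm and Pgam2.

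Among genes near 0, Trim63 was -0.0011 with RLE scaling, -0.0016 without a filter and -0.0033 with DESeq2. With 1 library left out, log2 fold changes ran from -0.48 to 0.048 for Tnnt1, -0.11 to 1.17 for Neb, -0.068 to 0.014 for Obsl1, -0.11 to 0.013 for Ak1, -0.18 to 0.23 for Myl4, -0.18 to 0.11 for Slc2a4, -0.014 to 0.026 for Mef2c, -0.046 to 0.050 for Trim63 and -0.039 to 0.0099 for Smtn. No paired analysis was possible because the columns carry no replicate numbers. Depth limits the slow fibre genes, which together had between 16 and 123 counts per library.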

Other observations

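Several genes known from muscle were abundant in every library, with little spread. Pax3, a regulator of muscle and pigment cell precursors, was at 171 to 182 CPM in NC and 166 to 201 CPM in Zelnorm. Pfkm, the muscle form of phosphofructokinase, was at 84.4 to 106 CPM in NC and 81.5 to 90.7 CPM in Zelnorm. Obsl1, a cytoskeletal linker related to obscurin, Jph2, which joins membrane and calcium store, and Trim63, a ubiquitin ligase of muscle atrophy, each had at least 859 counts in every library. Their log2 fold changes were -0.03 ± 0.06, -0.08 ± 0.08 and 0.00 ± 0.07 (SE). Mef2c, a transcription factor of muscle and neural crest, was at 53.6 to 58.9 CPM. Slc2a4, the insulin-responsive glucose transporter, was at 24.2 to 36.3 CPM, and Ak1, an adenylate kinase, at 24.5 to 29.5 CPM. In NC_6, where the sarcomere genes were lowest, Pax3, Obsl1 and Jph2 were at 182, 73.7 and 69.1 CPM, against 190, 73.5 and 70.4 CPM in MBZ_15. Srl, a protein of the calcium store, was at 5.70 to 8.07 CPM.

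Of heart muscle genes, Nppb had 139, 185 and 156 counts in NC and 212, 164, 171 and 265 in Zelnorm (log2 fold change 0.39 ± 0.16, edgeR adjusted p = 0.447). Myl4 had 25 to 39 counts, and Actc1, the heart actin, 1 to 7. Des, which encodes desmin of all muscle types, had 317, 207 and 288 counts in NC and 269, 391, 198 and 654 in Zelnorm, with MBZ_15 and MBZ_11 highest as for the sarcomere genes. Acta2, the actin of smooth muscle and myofibroblasts, had 443 to 887 counts in NC and 717 to 828 in Zelnorm, and Smtn, a smooth muscle protein, was at 62.9 to 69.1 CPM. Neither was highest in MBZ_15. Flnc, a filamin of muscle chosen after its values were seen, had 322 counts in MBZ_15 against 59 to 94 elsewhere.

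Summed over their lists, the other muscle genes of the sarcomere and cytoskeleton were at 160 to 179 CPM in NC and 163 to 226 CPM in Zelnorm, those of membrane and calcium at 97.5 to 108 CPM and 88.5 to 110 CPM, and those of metabolism at 192 to 207 CPM and 183 to 197 CPM. Muscle precursor genes were at 242 to 255 CPM in NC and 236 to 278 CPM in Zelnorm, heart genes at 9.36 to 12.2 CPM and 11.6 to 15.2 CPM, and smooth muscle genes at 122 to 158 CPM and 151 to 175 CPM. Endothelial genes were at 237 to 377 CPM in NC and 262 to 314 CPM in Zelnorm, and peripheral nerve genes at 228 to 244 CPM and 213 to 275 CPM.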
